A study of Homo sapiens with 12 samples.

Results

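The HOX cluster genes were described in DU-145 and LNCaP-AI prostate cancer cells. The members were all rows of the deposited counts whose symbol was HOXA, HOXB, HOXC or HOXD followed by a number, which gave 39 protein-coding genes among 58037 identifiers. The rule uses the symbols alone. HOX genes encode homeodomain transcription factors that assign position along the head-to-tail axis of the embryo. Within each cluster the genes lie in the order of the body regions in which they act, from low-numbered anterior to high-numbered posterior genes, and paralogs with the same number occupy the same place in different clusters. The posterior genes pattern the urogenital tract, and HOXB13 is a marker of the prostate lineage. HOX proteins bind DNA together with PBX, MEIS and PKNOX cofactors (the TALE class), and the clusters are held silent by Polycomb and active by trithorax complexes.

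Both lines carried a doxycycline (DOX)-inducible shRNA against MUC1 in the pLKO-tet-puro vector and were selected with puromycin. LNCaP-AI cells were established from C4-2B cells, themselves derived from LNCaP, by long culture without androgen, whereas DU-145 is an androgen-insensitive prostate carcinoma line. The treatment lasted 7 days, with DOX at 500 ng/ml or its 0.1% DMSO vehicle, and each line contributed 3 vehicle and 3 DOX samples, 12 in all. Per the labels, both lines were grown in phenol red-free medium with charcoal-stripped serum. The culture methods of the study give that medium for LNCaP-AI, but medium with heat-inactivated fetal bovine serum for DU-145. If the latter holds, medium and line cannot be told apart in comparisons of the lines. The labels name the vehicle groups shCTL and the DOX groups shMUC1, whereas the study describes the same tet-MUC1shRNA cells with and without DOX. No sample received DOX with a non-targeting shRNA in the files used here, so effects of DOX and of MUC1 silencing cannot be told apart. The labels say only that cells were grown in triplicate, so p-values measure only the spread between these samples, which may be technical.

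Total counts were 10423437 to 13544153 per DU-145 library and 16569613 to 26961777 per LNCaP-AI library. MUC1 had 74, 60 and 59 counts in DU-145 with vehicle and 3 in each DOX library, and 36, 25 and 52 against 8, 6 and 3 counts in LNCaP-AI, so both lines followed their labels. Of 8 luminal markers, KLK3, KLK2, TMPRSS2 and FOLH1 were among 5 that did not exceed 3 counts in any DU-145 library, and the list summed to 102 to 152 CPM (counts scaled to library size) in DU-145 against 2324 to 5188 CPM in LNCaP-AI. Markers of immune, endothelial, stromal and neuroendocrine cells summed to at most 25.6 CPM in any library. The LNCaP-AI libraries divided across treatment, and 85.1% of their variance lay on 1 principal component, along which vehicle 1, DOX 2 and DOX 3 (side A) lay apart from vehicle 2, vehicle 3 and DOX 1 (side B). The 8 genes listed as high in DU-145 and low in LNCaP summed to 155 to 170 CPM on side A and 799 to 914 CPM on side B, and 6 of them did not overlap between the sides. CD44, a surface receptor among them, had 0 to 3 counts on side A and 1483 to 2405 on side B. No label gives a batch for this division, so LNCaP-AI results are also given by side.

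HOX genes gave a small share of the transcripts, 0.0209% to 0.0231% of counts in DU-145 and 0.0423% to 0.0602% in LNCaP-AI libraries. With vehicle, 21 of the 39 members reached at least 10 counts in all 3 DU-145 libraries, 21 did so in all 3 LNCaP-AI libraries, and 14 did so in both lines. Between genes, levels are compared as CPM per kilobase (kb) of the gene's main annotated transcript. The summed level was 112 ± 2.21 CPM per kb in DU-145 and 175 ± 30.1 CPM per kb in LNCaP-AI (SD, n = 3), with HOXB13 alone giving 53.3% of the LNCaP-AI sum and HOXB7 26.2% of the DU-145 sum.

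The lines differed by position along the clusters. Anterior members, numbered 1 to 3, summed to 12.8 ± 1.09 CPM per kb in DU-145 and 1.75 ± 0.651 in LNCaP-AI (SD, n = 3). Central members, numbered 4 to 8, summed to 53.9 ± 2.26 CPM per kb in DU-145 and 30.8 ± 4.26 in LNCaP-AI. The central difference rested largely on HOXB7, at 29.3 CPM per kb in DU-145 and 8.49 in LNCaP-AI. It gave 54.5% of the central sum in DU-145. Posterior members, numbered 9 to 13, summed to 45.4 ± 0.427 CPM per kb in DU-145 and 142 ± 26.5 in LNCaP-AI. The posterior excess rested on HOXB13, since the other 15 posterior members summed to 49.0 ± 2.32 CPM per kb in LNCaP-AI.

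**Figure D1:**
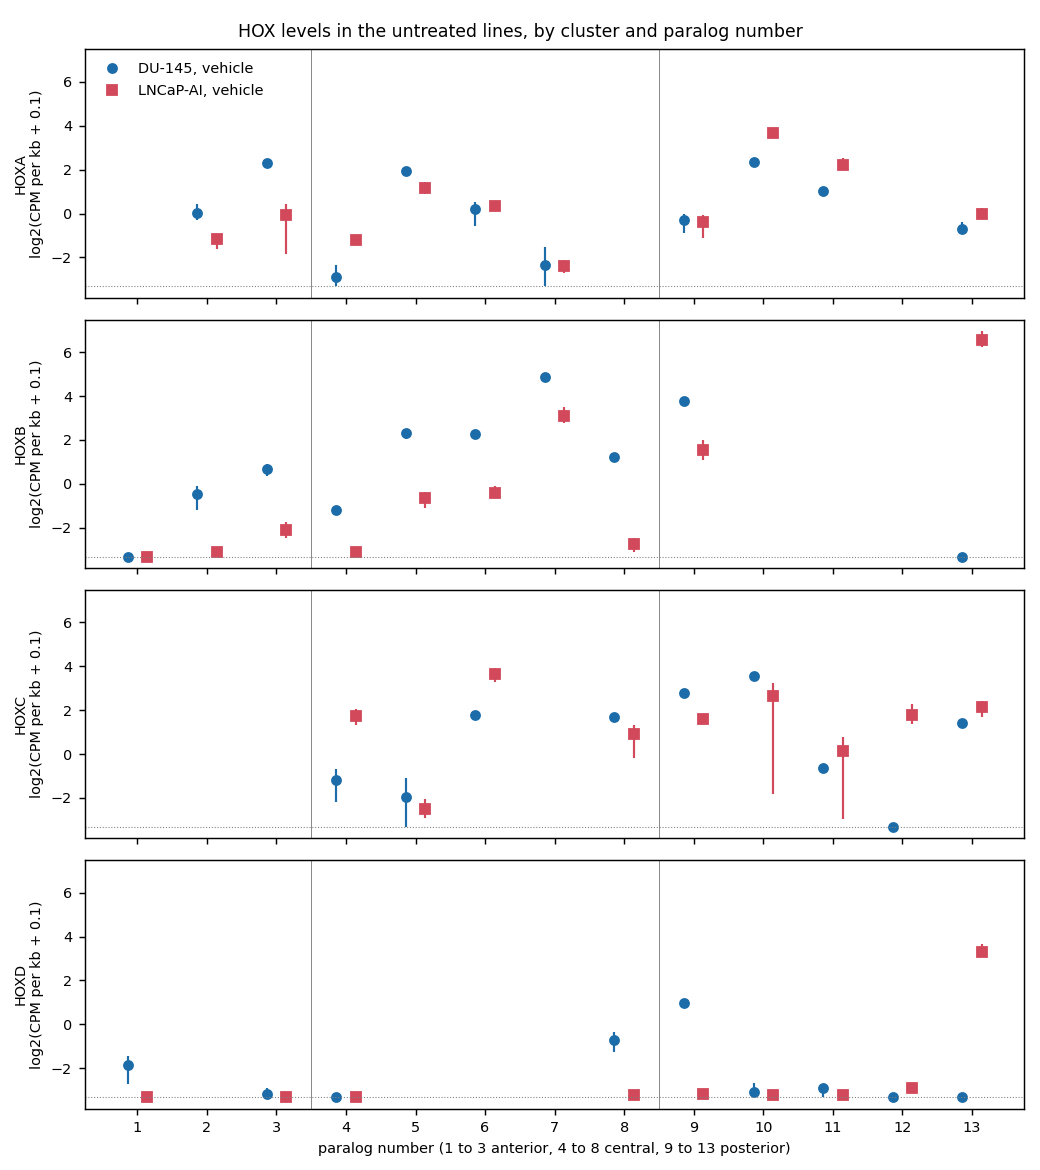
Level of the HOX members named here in vehicle-treated DU-145 (circles) and LNCaP-AI cells (squares), as log2(CPM per kb + 0.1), by cluster (panels) and paralog number. Symbols are means of 3 libraries, vertical lines run from the lowest to the highest library, and the dotted line is a level of 0. HOXB13 and HOXD13 stand high in LNCaP-AI and at 0 in DU-145, and the HOXC10 and HOXC11 lines are long in LNCaP-AI.

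To ask how the vehicle-treated lines differ, 28 members that reached 10 counts in 3 or more of the 6 libraries were tested by edgeR's quasi-likelihood test within a fit of 15628 genes. At a Benjamini-Hochberg adjusted p under 0.05, 10 members (35.7%) were higher in LNCaP-AI, where 35.0% of all genes tested were higher, and 13 (46.4%) were lower, where 30.2% of all genes were lower. The share of higher members was thus close to that of all genes. The median log2 difference of the 28 members was -0.83, against 0.06 over all genes tested. All 4 anterior members tested were lower in LNCaP-AI and none higher. Among 11 central members tested 3 were higher and 6 lower, and among 13 posterior members 7 were higher and 3 lower.

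HOXB13 (ENSG00000159184) had the highest level per kb of any member in LNCaP-AI. It had 8525, 4263 and 6929 counts in the vehicle libraries of LNCaP-AI and 0 in all 6 DU-145 libraries. Against a floor of 3 counts per library, it was at least 1060-fold higher in LNCaP-AI (adjusted p = 2.32e-05, edgeR). HOXB13 lies apart from the rest of its cluster, and its neighbours PRAC1 and PRAC2, small genes named for expression in prostate, rectum and colon, had the same split. PRAC1 had 220, 120 and 183 counts in LNCaP-AI with vehicle and 0 in every DU-145 library, a level at least 28.2-fold higher. The other HOXB members went the opposite way, with 6 of the 7 tested members of the cluster lower in LNCaP-AI.

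HOXB7, a central member, was the highest per kb in DU-145 at 29.3 ± 1.29 CPM per kb (SD, n = 3). It had 483, 381 and 500 counts in DU-145 with vehicle and 346, 174 and 288 in LNCaP-AI. The log2 difference was -1.83 (SE 0.203, adjusted p = 2.15e-04, edgeR). HOXB7 was still among the 10 highest members of LNCaP-AI, with HOXA10 and HOXC10 the only others shared by both lists of 10. HOXB9, a posterior member and the second in DU-145, had 432, 354 and 400 counts there and 224, 98 and 190 in LNCaP-AI. HOXB5 had 92, 98 and 120 counts in DU-145 and 28, 20 and 20 in LNCaP-AI. HOXB6 likewise had 111, 70 and 89 against 31, 18 and 28 counts. HOXB9, HOXB5, HOXB6, HOXB3 and HOXB8 were called lower in LNCaP-AI. The log2 differences of these genes ran from -2.30 (HOXB9) to -5.50 (HOXB8). Because HOXB6 shares 16.6% of its exon length on the same strand with HOXB3, the counts of the pair are less certain than those of HOXB7 and HOXB9, which share none. The same holds for HOXC4 (17.5%), HOXC6 (16.1%), HOXA4 (31.3%) and HOXA9 (15.9%), among others, which share exons with annotated genes on their strand. If strand was not used, it also holds for HOXA11 (27.2% opposite HOXA11-AS) and HOXA6 (39.3% opposite HOXA-AS3), among others.

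HOXA members divided by position within 1 cluster. HOXA3, an anterior member, had 168, 151 and 176 counts in DU-145, and 12, 63 and 111 in LNCaP-AI (log2 difference -2.53, SE 0.579, adjusted p = 6.62e-03, edgeR). HOXA5 had 84, 56 and 71 counts in DU-145 and 77, 54 and 125 in the deeper LNCaP-AI libraries, with a log2 difference of -0.83 (SE 0.215, adjusted p = 0.0117, edgeR). HOXA3, HOXA5 and HOXA2 were lower in LNCaP-AI. At the posterior end HOXA10 had 148, 115 and 171 counts in DU-145 and 818, 548 and 840 in LNCaP-AI (log2 difference 1.28, SE 0.148, adjusted p = 2.64e-04, edgeR). HOXA11 had 59, 48 and 70 counts in DU-145 against 342, 199 and 301. HOXA13, a regulator of distal limb and urogenital development, had 26, 21 and 40 counts in DU-145 and 121, 78 and 106 in LNCaP-AI. HOXA10, HOXA11 and HOXA13 were called higher in LNCaP-AI, although HOXA13 lost its call in 5 of 14 alternatives. HOXA4, a central member, was also higher, with 11 to 15 counts in LNCaP-AI and 0, 0 and 2 in DU-145, a ratio of 9.48 with a 95% counting interval of 2.46 to 81.1. HOXA6 and HOXA9 were not called, with log2 differences of 0.11 and -0.16.

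HOXC6, which is expressed in prostate tumours, was the leading HOXC member per kb in LNCaP-AI. It had 65, 57 and 66 counts in DU-145 and 566, 302 and 560 in LNCaP-AI (log2 difference 1.83, SE 0.198, adjusted p = 1.90e-04, edgeR). HOXC4 had 11, 2 and 8 counts in DU-145 and 92, 99 and 202 in LNCaP-AI. HOXC12 had 0 counts in all 6 DU-145 libraries and 185, 177 and 445 in LNCaP-AI with vehicle, a level at least 41.4-fold higher. Its neighbour HOXC13, which acts in hair and nail development, was present in both lines with 75, 58 and 74 counts in DU-145 and 165, 197 and 355 in LNCaP-AI. That difference was 0.69 on the log2 scale (SE 0.218, adjusted p = 0.0256, edgeR) and lost its call in 5 of 14 alternatives. HOXC9 went the other way, with 122, 110 and 110 counts in DU-145 and 111, 76 and 117 in LNCaP-AI (log2 difference -1.25, SE 0.174).

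HOXC10, HOXC11 and HOXC8 were not called between the lines, and their LNCaP-AI libraries were far apart. HOXC10, a posterior member, had 301, 231 and 267 counts in DU-145, and 8, 334 and 540 in LNCaP-AI vehicle 1, 2 and 3. HOXC11 had 21, 18 and 22 counts in DU-145, and 2, 82 and 150 in LNCaP-AI. HOXC8 had 95, 64 and 98 counts in DU-145, and 42, 110 and 151 in LNCaP-AI. Vehicle 1 was the low library each time. With vehicle 1 left out, HOXC10 and HOXC8 were called lower in LNCaP-AI and HOXC11 higher, and with vehicle 1 as the lone LNCaP-AI library all 3 were called lower, HOXC11 by -4.24 and HOXC10 by -6.04 on the log2 scale. That last setting was added after seeing the data and assumes that the lone library varies like the other group. The direction for HOXC11 therefore depended on which LNCaP-AI libraries were used.

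HOXD had the lowest summed level of the 4 clusters in both lines, 2.60 ± 0.276 CPM per kb in DU-145 and 9.83 ± 2.51 in LNCaP-AI (SD, n = 3). In DU-145 with vehicle 6 of 9 members stayed at 3 counts or fewer, and in LNCaP-AI 8 of 9 did. HOXD9 and HOXD8 were the DU-145 members of the cluster. HOXD9 had 39 counts in each DU-145 vehicle library and 0, 1 and 0 in LNCaP-AI, a ratio of 241 with a 95% counting interval of 42.3 to 9582. HOXD8 had 16, 18 and 10 counts in DU-145 and 0, 1 and 0 in LNCaP-AI. HOXD13, at the posterior end, had the opposite pattern with 687, 378 and 576 counts in LNCaP-AI and 0 in each DU-145 vehicle library, at least 88.5-fold higher. HOXD13 gave 99.4% of the level of its cluster per kb in LNCaP-AI, while the adjacent HOXD12 had 3, 1 and 2 counts there. The remaining members were at or near 0, with HOXB1 and HOXD4 at 0 in all 12 libraries, HOXD3, HOXD10 and HOXD11 at no more than 1 count in any library, and HOXD1 at 1 to 9 counts in DU-145 and 0 in LNCaP-AI. HOXA7 and HOXC5 had 0 to 7 counts throughout. HOXB2 and HOXB4 were DU-145 genes of low level, at 7 to 18 and 3 to 21 counts against 0 to 1 and 0 to 3 in LNCaP-AI.

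The sequences before the start of HOXD13 and HOXD12 are shown because these neighbours on chromosome 2 had 378 to 687 and 1 to 3 counts in vehicle-treated LNCaP-AI, and that of HOXA13, on chromosome 7, because this paralog of HOXD13 was expressed in both lines. Each holds the 250 bases before the RefSeq start on GRCh38.p14, read 5′ to 3′ on the gene's strand, with no annotated exon inside. Capitals mark matches on either strand to the E-box CACGTG, the TATA motif TATAAA, the box named CCAAT and the GC box GGGCGG, and adjoining or overlapping matches run together. HOXD13 lies at chr2:176092471-176092720 (plus strand), HOXD12 at chr2:176099545-176099794 (plus strand) and HOXA13 at chr7:27200092-27200341 (minus strand).
HOXD13: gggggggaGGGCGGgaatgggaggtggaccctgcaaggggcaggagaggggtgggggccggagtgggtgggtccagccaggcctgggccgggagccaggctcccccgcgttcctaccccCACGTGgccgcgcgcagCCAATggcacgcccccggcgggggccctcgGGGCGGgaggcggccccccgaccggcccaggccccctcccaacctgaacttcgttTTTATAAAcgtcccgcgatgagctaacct
HOXD12: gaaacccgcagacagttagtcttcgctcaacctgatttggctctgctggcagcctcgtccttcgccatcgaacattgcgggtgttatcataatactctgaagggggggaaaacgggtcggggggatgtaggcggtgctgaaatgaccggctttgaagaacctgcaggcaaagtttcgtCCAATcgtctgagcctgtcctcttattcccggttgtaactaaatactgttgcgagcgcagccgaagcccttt
HOXA13: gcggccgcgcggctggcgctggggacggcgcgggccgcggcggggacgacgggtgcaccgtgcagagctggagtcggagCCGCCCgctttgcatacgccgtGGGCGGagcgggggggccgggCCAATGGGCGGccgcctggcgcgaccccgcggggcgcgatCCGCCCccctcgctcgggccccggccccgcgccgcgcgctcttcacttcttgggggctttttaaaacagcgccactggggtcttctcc
HOXD13 held overlapping TATAAA matches at -29 and -27, an E-box at -131, CCAAT at -114 and GC boxes at -242 and -84. HOXD12 held only CCAAT at -72. HOXA13 held GC boxes at -171, -149, -123 and -88 and CCAAT at -128. The windows counted 21, 16 and 40 CpG dinucleotides in that order. There were 27 windows for 20 of the 39 members, some with several starts, and the windows of HOXC4 and HOXC5 were the same. HOXA3 had the most windows, HOXB1 was the only HOXB member, and HOXC4 and HOXC5 were the only HOXC members. Most windows thus belonged to HOXA and HOXD, and the shares do not describe all HOX promoters. Over these 27 windows CACGTG was found in 29.6%, CCAAT in 66.7%, TATAAA in 18.5%, GGGCGG in 48.1% and the homeodomain core TAATTA in 7.41%. Over all 35116 windows of that length the shares were 6.34%, 32.0%, 10.7%, 42.6% and 4.35%. A match is a description of letters and not a binding site.

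In DU-145 cells, DOX raised 4 HOX members and lowered 5. HOXB6, HOXB8 and HOXA10 were among those that rose, and HOXA13, HOXC11, HOXC13, HOXC8 and HOXB9 fell. Of the 24 members tested this was 16.7% higher and 20.8% lower, where 26.3% of the 13644 genes tested were higher and 25.3% were lower, so HOX members were called no more often than other genes. The remaining 15 tested members were not called, and 15 further members were too low to test. The median log2 fold change of the 24 members was -0.08, against 0.00 over all genes. In a bulk sample, fewer cells that express a gene and less RNA per cell cannot be told apart.

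HOXB6 and HOXB8, neighbouring central members on either side of HOXB7, rose with similar size. HOXB6 had 111, 70 and 89 counts with vehicle and 144, 187 and 143 with DOX, a log2 fold change of 0.79 (SE 0.133, adjusted p = 5.65e-05, edgeR). HOXB8 had 63, 43 and 58 counts with vehicle and 83, 115 and 82 with DOX, a log2 fold change of 0.75 (SE 0.160, adjusted p = 6.33e-04, edgeR). HOXB7 between them was not called at 0.11. HOXA10, a posterior member that acts in uterine and blood cell development, had 148, 115 and 171 counts with vehicle and 172, 242 and 212 with DOX. After scaling to library size its groups did not overlap, and the log2 fold change was 0.51 (SE 0.118, adjusted p = 1.34e-03, edgeR).

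HOXA13 (ENSG00000106031) fell most. It had 26, 21 and 40 counts with vehicle and 14, 6 and 5 with DOX, or 2.54 ± 0.710 and 0.745 ± 0.498 CPM (SD, n = 3). The log2 fold change was -1.79 (SE 0.377, adjusted p = 5.71e-04, edgeR), at a depth of only a few counts per DOX library. HOXC11 had 21, 18 and 22 counts with vehicle and 9, 13 and 8 with DOX (log2 fold change -1.03, SE 0.315, adjusted p = 0.0100, edgeR). HOXC13 had 75, 58 and 74 counts with vehicle and 39, 59 and 30 with DOX (log2 fold change -0.71, SE 0.195, adjusted p = 4.93e-03, edgeR). Of the 5 members that fell, 4 were posterior, against 1 of the 4 that rose and 10 of the 24 tested. HOXC8, a central member, had 95, 64 and 98 counts with vehicle and 55, 79 and 59 with DOX. HOXB9 had 432, 354 and 400 counts with vehicle and 342, 387 and 300 with DOX. Their log2 fold changes were -0.43 (adjusted p = 0.0314) and -0.22 (adjusted p = 0.0407) by edgeR. The calls of HOXC8 and HOXB9 were lost in 6 and 7 of 13 alternatives, and that of HOXC11 with DESeq2 and with all 12 samples in the fit. HOXB9 was lost when vehicle 1, vehicle 2, DOX 2 or DOX 3 was left out, and HOXC8 without vehicle 1, vehicle 3, DOX 1 or DOX 3. The other 6 members were called in all 13 alternatives.

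**Figure D2:**
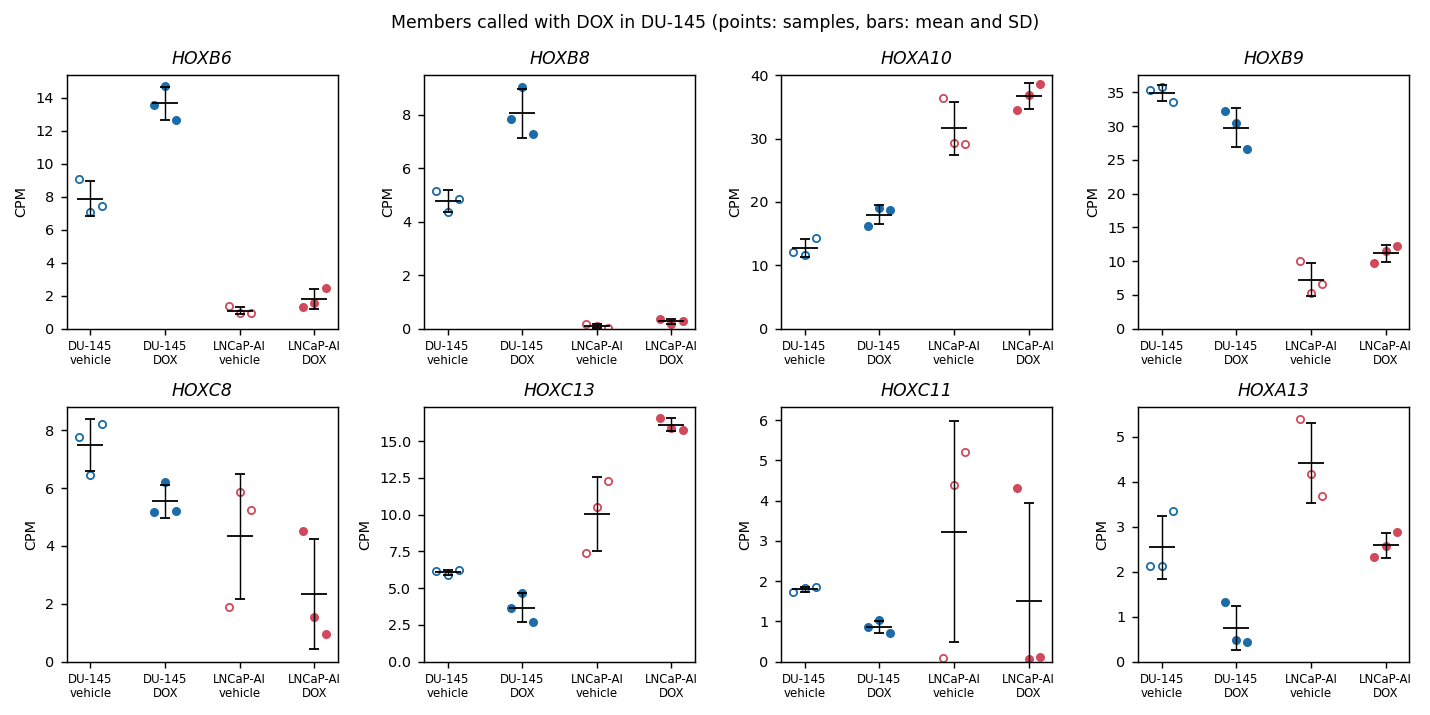
CPM of 8 of the 9 members called with DOX in DU-145, in all 12 libraries. Open points are vehicle and filled points DOX libraries of DU-145 (blue) and LNCaP-AI (red), and bars give the mean and SD of 3. HOXC13 falls with DOX in DU-145 and its 3 DOX libraries lie above the vehicle libraries in LNCaP-AI.

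In LNCaP-AI cells no HOX member passed the threshold with DOX. By edgeR 0 of the 25 members tested had an adjusted p under 0.05, where 7.22% of 16030 genes were higher and 5.52% lower. Those shares rested on few libraries, since 1 gene was higher and 0 were lower without DOX 2 or without DOX 3, and 0 were called either way with the replicate block. At an unadjusted p under 0.05, 2 members were higher, where 16.6% of all genes were, and 3 were lower, where 14.6% were. DESeq2 called 1 member each way, where it called 11.8% of all genes higher and 10.1% lower. Over the 25 members the log2 fold change had a median of -0.26, against -0.05 over all genes. Of the vehicle libraries only vehicle 1 lay on side A, with DOX 2 and DOX 3. Treatment and side are thus partly confounded in these values, and their parts in the median were not tested. The groups did not overlap for 3 members with DOX higher (HOXB5 and HOXC13 among them) and 3 with DOX lower (HOXA5, HOXA6, HOXA13), where 21.9% and 16.1% of all genes tested had such groups.

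HOXA13 had the same sign as in DU-145. It had 121, 78 and 106 counts with vehicle and 57, 45 and 51 with DOX, a log2 difference of -0.80 (SE 0.215, adjusted p = 0.0613, edgeR). Within sides A and B, the difference was -0.96 and -0.73. Here and below, each within-side value rests on a single library in 1 group, vehicle 1 on side A and DOX 1 on side B. The difference between the lines was not called, with an interaction of 1.01 (SE 0.515, adjusted p = 0.252, edgeR). HOXA5 and HOXA6 had differences of -0.77 and -1.27 (adjusted p = 0.104 and 0.116, edgeR), at 5 to 15 counts of HOXA6 per DOX library.

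HOXC13 (ENSG00000123364) was the member whose DOX effect differed between the lines. In LNCaP-AI it had 165, 197 and 355 counts with vehicle and 408, 279 and 280 with DOX, or 10.1 ± 2.51 and 16.1 ± 0.442 CPM (SD, n = 3). After scaling to library size all 3 DOX libraries were above the vehicle libraries, the log2 difference was 0.65 (SE 0.196, adjusted p = 0.0805, edgeR), and within sides A and B it was 1.10 and 0.54. In DU-145 the gene fell by 0.71 on the log2 scale. The interaction over all 12 samples was 1.40 (SE 0.304, adjusted p = 0.0190, edgeR). It was the only call among 29 members tested, where 5.43% of 16800 genes had a higher and 3.76% a lower DOX effect in LNCaP-AI. With a replicate block the interaction was 1.47 with an adjusted p of 0.115. HOXC13 shares 7.30% of its exon length with the antisense HOXC13-AS, and the strand setting of the counting is not given in the sources used here.

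**Figure D3:**
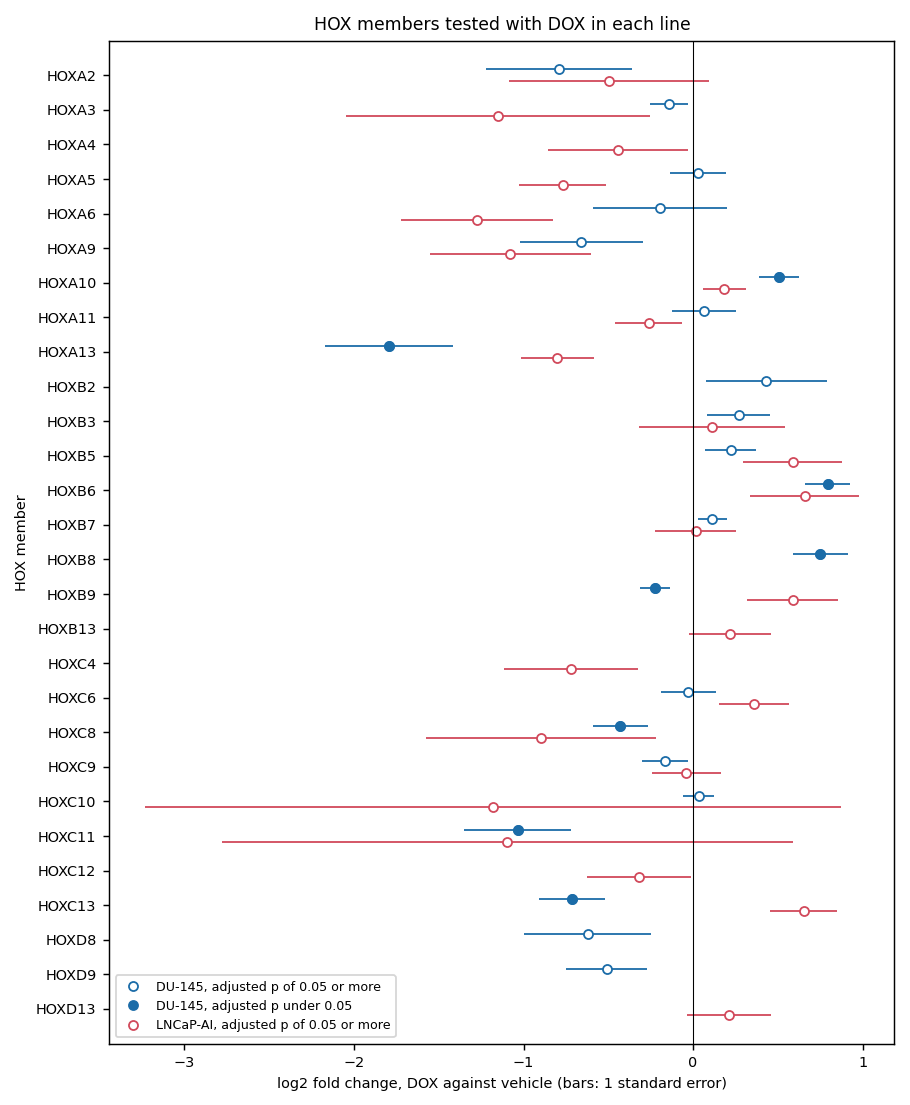
Log2 fold change with DOX for the HOX members named here that were tested in DU-145 (blue) or LNCaP-AI (red), with bars of 1 standard error. Filled points have an adjusted p under 0.05 by edgeR and are all DU-145, HOXC13 points in opposite directions in the lines, and HOXC10 and HOXC11 have the widest bars in LNCaP-AI.

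HOXB13 did not pass the test with DOX. It had 8525, 4263 and 6929 counts with vehicle and 6691, 6428 and 6538 with DOX, a log2 difference of 0.22 (SE 0.241, adjusted p = 0.593, edgeR), and -0.05 and 0.22 within the sides. Beside it, PRAC1 rose from 220, 120 and 183 counts to 383, 327 and 373, a log2 fold change of 1.26 (SE 0.234, adjusted p = 0.0250, edgeR) and 1.01 and 1.27 within the sides. PRAC2 was not called. In the HOXC cluster, the noncoding HOXC-AS1 rose from 9, 10 and 17 to 34, 28 and 28 counts (log2 fold change 1.54, SE 0.240, adjusted p = 0.0177, edgeR). Neither call held without DOX 2 or without DOX 3 (adjusted p = 0.113 and 0.116 for PRAC1, edgeR) or with the replicate block (adjusted p = 0.184 for PRAC1 and 0.169 for HOXC-AS1, edgeR). PRAC1 was also not called without vehicle 2 or without vehicle 3 (adjusted p = 0.0563 and 0.0570, edgeR).

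Many HOX members differed between the sides of LNCaP-AI. Of the 25 members tested, 7 were higher in every library of side B than of side A and 7 were lower, where 21.4% and 13.8% of all genes had such an order. Since the division came from these counts, the values are descriptions only. HOXC10 had 8, 0 and 2 counts in vehicle 1, DOX 2 and DOX 3, and 334, 540 and 399 in vehicle 2, vehicle 3 and DOX 1. Its mean was 0.156 CPM on side A and 17.6 CPM on side B, beside 23.5 ± 1.13 CPM (SD, n = 3) in vehicle-treated DU-145. HOXC11 had 2, 1 and 2 counts on side A and 82, 150 and 106 on side B. HOXC8, HOXA3, HOXC4, HOXA9 and HOXC12 were also higher on side B, as were the noncoding HOTAIR, HOXC-AS2 and HOXC-AS3, which lie among the posterior HOXC genes, and MEIS2, a TALE cofactor. The posterior members HOXB13, HOXD13, HOXA10 and HOXB9 and the central members HOXB6, HOXB7 and HOXC6 were higher on side A. HOXB13 had a mean of 372 CPM on side A and 247 CPM on side B.

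**Figure D4:**
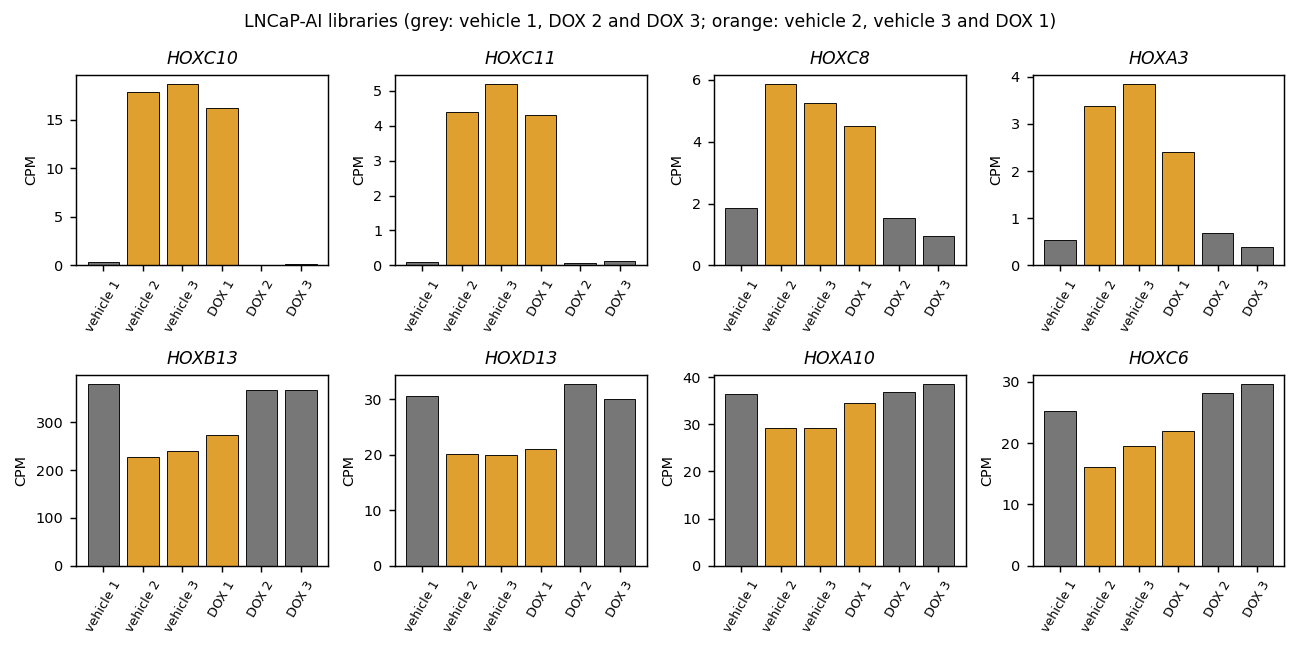
CPM of 8 HOX members in each LNCaP-AI library, with side A in grey and side B in orange. HOXC10 and HOXC11 are near 0 in the 3 grey libraries, HOXC8 and HOXA3 are lower there, and HOXB13, HOXD13, HOXA10 and HOXC6 are higher there.

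The luminal markers summed to 3568 to 5188 CPM on side A and 2324 to 3821 CPM on side B, and 2 of the 8 did not overlap. With the markers high in DU-145 given above, their part in the HOX differences was not tested. S100A2, 1 of the 6 markers higher on side B, had 711 to 1340 counts there against 51 to 74 counts in vehicle-treated DU-145. Within sides, the DOX difference had the same sign on both for 19 of the 25 tested members, 8 higher (among them HOXB9 and HOXC13) and 11 lower (among them HOXA5, HOXA6 and HOXA13), where 39.7% of all genes were higher and 38.9% lower on both sides. With the side added to the fit, 9 members were called with DOX, with HOXB9 and HOXC13 among the 3 higher and HOXA5, HOXA6, HOXA9, HOXA11, HOXA13 and HOXC4 the 6 lower, where 18.8% of all genes were higher and 20.3% lower. That fit was added after seeing the data and uses sides drawn from the counts it tests.

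The genes that act with or on the HOX clusters were examined as lists. In DU-145 6 of 8 tested TALE cofactors fell with DOX and none rose, with log2 fold changes from -0.26 (PKNOX1) to -0.76 (MEIS3), and in LNCaP-AI PBX3 fell by 0.77 on the log2 scale. Of 13 trithorax and menin genes 4 rose and 2 fell with DOX in DU-145 and none was called in LNCaP-AI. Of 22 Polycomb genes 6 rose and 6 fell in DU-145, where BMI1, a Polycomb ring finger protein, fell by 1.16 on the log2 scale. In LNCaP-AI 3 Polycomb genes fell (EZH2, RBBP4 and PHC3) and none rose. The LNCaP-AI calls of these 3 genes, of PBX3 and of MUC1 itself were lost without DOX 2, without DOX 3 and with the replicate block, with adjusted p from 0.0829 to 0.192 by edgeR, and PBX3 was also lost without vehicle 1, 2 or 3 and RBBP4 without vehicle 2 or 3. A further list concerned retinoic acid, an input that switches on anterior HOX genes in the embryo. It held receptor, synthesis and breakdown genes and the CDX transcription factors. Of this list 2 of 6 tested rose and 2 fell in DU-145 and 0 of 10 were called in LNCaP-AI by edgeR. These counts are to be read against all genes tested, of which 26.3% were higher and 25.3% lower with DOX in DU-145. In LNCaP-AI 7.22% were higher and 5.52% lower. The Polycomb counts in DU-145 were close to the shares of all genes.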

How the data were processed

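The members and gene lists were chosen with earlier results of these data known. The authors extracted RNA with Trizol, made TruSeq stranded mRNA libraries and deposited whole-number counts for each gene, not normalized. The submitters' processing notes name CASAVA 1.8.2, STAR 2.7.0, DESeq2 1.24.0 and GRCh38.p7. The counter, its strand setting and its treatment of shared reads are not given in the sources used here. Of 58037 identifiers, 56993 matched a symbol by Ensembl ID. Coordinates and lengths came from GENCODE on GRCh38, which may differ from the authors' release, and promoter sequences from RefSeq.

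Counts were compared with edgeR 4.0.16 in R 4.3.3 (TMM scaling, quasi-likelihood test). Genes needed 10 counts or more in 3 samples, and p-values were adjusted by Benjamini-Hochberg over all genes tested. Each standard error is the log2 difference over the square root of its F. CPM used TMM factors of all 12 libraries. Values within sides are log2(CPM + 0.1) with no test, and each has a single library in 1 group. A level of 0 was bounded at 3 counts per library, and ratios with 1 to 3 counts carry exact 95% intervals. Both cover counting error only, since the counts carry no molecular identifiers. Alternatives were DESeq2 1.42.0, its size factors, upper-quartile scaling, no filter, a filter at 1 CPM, 1 fit over all 12 samples, a replicate block and leaving out each library. The scripts were tested on simulated data. Counts in every sample are given for members called with DOX and for the 10 highest per kb in each vehicle-treated line. The values of some genes are not reported here. Other members and genes given with values were singled out after their values were seen.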

Additional observations from a re-analysis of the deposited data

Results flagged for a closer look

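HOXC13 differed between the lines in its response to DOX. Its log2 fold change was -0.71 in DU-145, where all 3 DOX libraries were below the vehicle libraries after scaling to library size, and 0.65 in LNCaP-AI, where all 3 were above. The interaction was 1.40 (SE 0.304, adjusted p = 0.0190, edgeR). It kept its sign and call in 18 of 19 alternatives, the exception being the replicate block, and ranged down to 1.22. The cause was not tested.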

How the results depend on the processing

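The 23 members called between the vehicle-treated lines became 18 to 25 over 13 alternatives and 26 with vehicle 1 as the lone LNCaP-AI library, chosen after seeing the data, and the 9 called with DOX in DU-145 became 6 to 9 over 13. None of these 23 and 9 members changed direction. HOXC11, not among the 23, was called higher in LNCaP-AI without vehicle 1. With vehicle 1 as the lone LNCaP-AI library its log2 difference was -4.24. Leaving out a library of 1 line removed from the filter the members near 0 in the other line, among them HOXB13 and HOXD13 for LNCaP-AI libraries. For DOX in LNCaP-AI, the count of 0 became 2 with DESeq2 (HOXC13 higher, HOXA13 lower), 4 with all 12 samples in 1 fit (HOXB9 and HOXC13 among the 3 higher, HOXA5 lower, against a background of 14.4% higher and 10.5% lower) and 9 with the side as a covariate, an alternative chosen after seeing the data. Leaving out a library gave 0 to 2, with HOXB9 called without vehicle 1, and HOXC4 among 2 called without DOX 1. For the interaction, the count of 1 became 2 with DESeq2 and 2 with the side as a covariate (HOXB9 and HOXC13 each time). It was 0 with the replicate block and 1 to 3 with a library left out, adding HOXA13 without DU-145 DOX 1, HOXB9 without LNCaP-AI vehicle 1, and HOXB9 and HOXC10 without LNCaP-AI DOX 1. The cause of these changes was not tested. Deviations of same-numbered vehicle and DOX libraries from their group means correlated at 0.145, -0.0863 and 0.0944 in DU-145, which gave no sign of pairing. In LNCaP-AI they correlated at -0.957, -0.872 and -0.892. There the same-numbered libraries lay on opposite sides, so these values cannot show whether the cultures were paired. The replicate block moved the calls over all genes from 1158 higher and 885 lower to 0 and 0 with DOX in LNCaP-AI and from 912 and 631 to 30 and 22 in the interaction, and it moved no other count of HOX members by over 1.5 times. Members under 10 counts in most libraries were beyond the test at this depth.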
